A study of Mus musculus with 3 samples.

Results

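The genes described here encode the nuclear part of the mitochondrial respiratory chain and the ATP synthase. They were chosen by symbol, as the rows of the gene table whose names begin with Nduf followed by a, b, c, s or v and a digit, with Uqcr, with Cox and a digit from 4 to 8, or with Atp5, together with Sdha, Sdhb, Sdhc, Sdhd, Cyc1 and Cycs. The rule found 88 genes among 17285. Of these, 38 were assigned to complex I, 4 to complex II, 9 to complex III, 1 to cytochrome c, 19 to complex IV and 17 to complex V, the ATP synthase. By role, 76 encode subunits, 7 are isoforms of complex IV subunits made in particular tissues or conditions, 3 are copies related to Ndufb4 or Ndufa11, and 2 are factors (Cox7a2l and Atp5s). RNA was sequenced from B16, a mouse melanoma cell line, carrying a stably integrated empty vector (Mock). The 3 Mock samples form a single group with no treatment, so genes were compared with fixed levels, with each other and between libraries. Whether they came from separate cultures, and whether the line was 1 clone, is not in the labels. The spread among libraries that the tests use or measure may therefore be technical alone. The labels name the cell line as source, while the extraction protocol also speaks of organs.

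The respiratory chain passes electrons from NADH through complex I, or from succinate through complex II, to ubiquinone, then through complex III and cytochrome c to complex IV, which reduces oxygen. Complexes I, III and IV pump protons across the inner mitochondrial membrane, and the ATP synthase uses their return to make ATP. Most subunits are encoded in the nucleus and imported. The few that mitochondrial DNA encodes were not analysed here. Several small subunits of complex IV exist as a widely expressed form and a form made mainly in heart and skeletal muscle, testis, lung or brown fat, or in low oxygen.

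The libraries held 9328096, 9456527 and 9438905 counts in replicates 1, 2 and 3, and the 88 genes took 1.59%, 1.60% and 1.62% of them. All 6 melanocyte markers (Pmel, Tyrp1, Dct, Mlana, Mitf and Sox10) were above 100 CPM (reads scaled to library size), while the muscle markers Acta1, Ckm and Myh7 had 3, 2 and 4 reads over the 3 libraries, Tnnt3 and brown fat Ucp1 had none, and the testis marker Prm1 had 1. Prm2 and Tnp1 were not analysed here.

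All 76 subunit genes were transcribed above 1 CPM, whereas only 1 of the 7 tissue-type isoforms was. Over all 88 genes, 80 were above 1 CPM and 1 below by the quasi-likelihood F test of edgeR (Benjamini-Hochberg adjusted p under 0.05), against 74.3% above and 20.2% below among the 14408 genes tested. The 88 include 5 genes without a read, which were not tested. Over the whole table, with its 2877 genes without a read, 10711 of 17285 were above and 2907 below. The largest adjusted p among the subunits was 8.68e-11, for Atp5k, the e subunit of the ATP synthase. The other genes were Ndufa11b, called below (adjusted p = 6.10e-04), Cox7a1 and Ndufa4l2, unresolved (adjusted p = 0.272 and 0.291), and Cox4i2, Cox6b2, Cox7b2, Cox8b and Ndufb4b, without a read. No read in any library allows up to 3 counts over the group, or 0.106 CPM, a limit that covers counting error only. Against 100 CPM, 49 of the 88 were above and 29 below (edgeR, adjusted p under 0.05), against 16.1% above and 81.9% below among all genes tested. The share above 100 CPM differed by complex, with 12 of 38 genes in complex I, 4 of 4 in complex II, 8 of 9 in complex III, 12 of 19 in complex IV and 12 of 17 in complex V, besides Cycs. These counts mix classes of genes. None of the 7 tissue-type isoforms, all in complex IV, was above, nor any of the 3 copies, all in complex I, nor Atp5s in complex V. All 11 widely expressed subunits of complex IV were above, and over all complexes 48 of 76 subunits were.

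To compare genes with each other, counts were divided by transcript length and scaled to the same total in each library, which gives TPM. The median over the genes with a length was 283.7 TPM for the 87 members and 17.33 TPM for the 14117 genes of the table with a count.

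**Figure D1:**
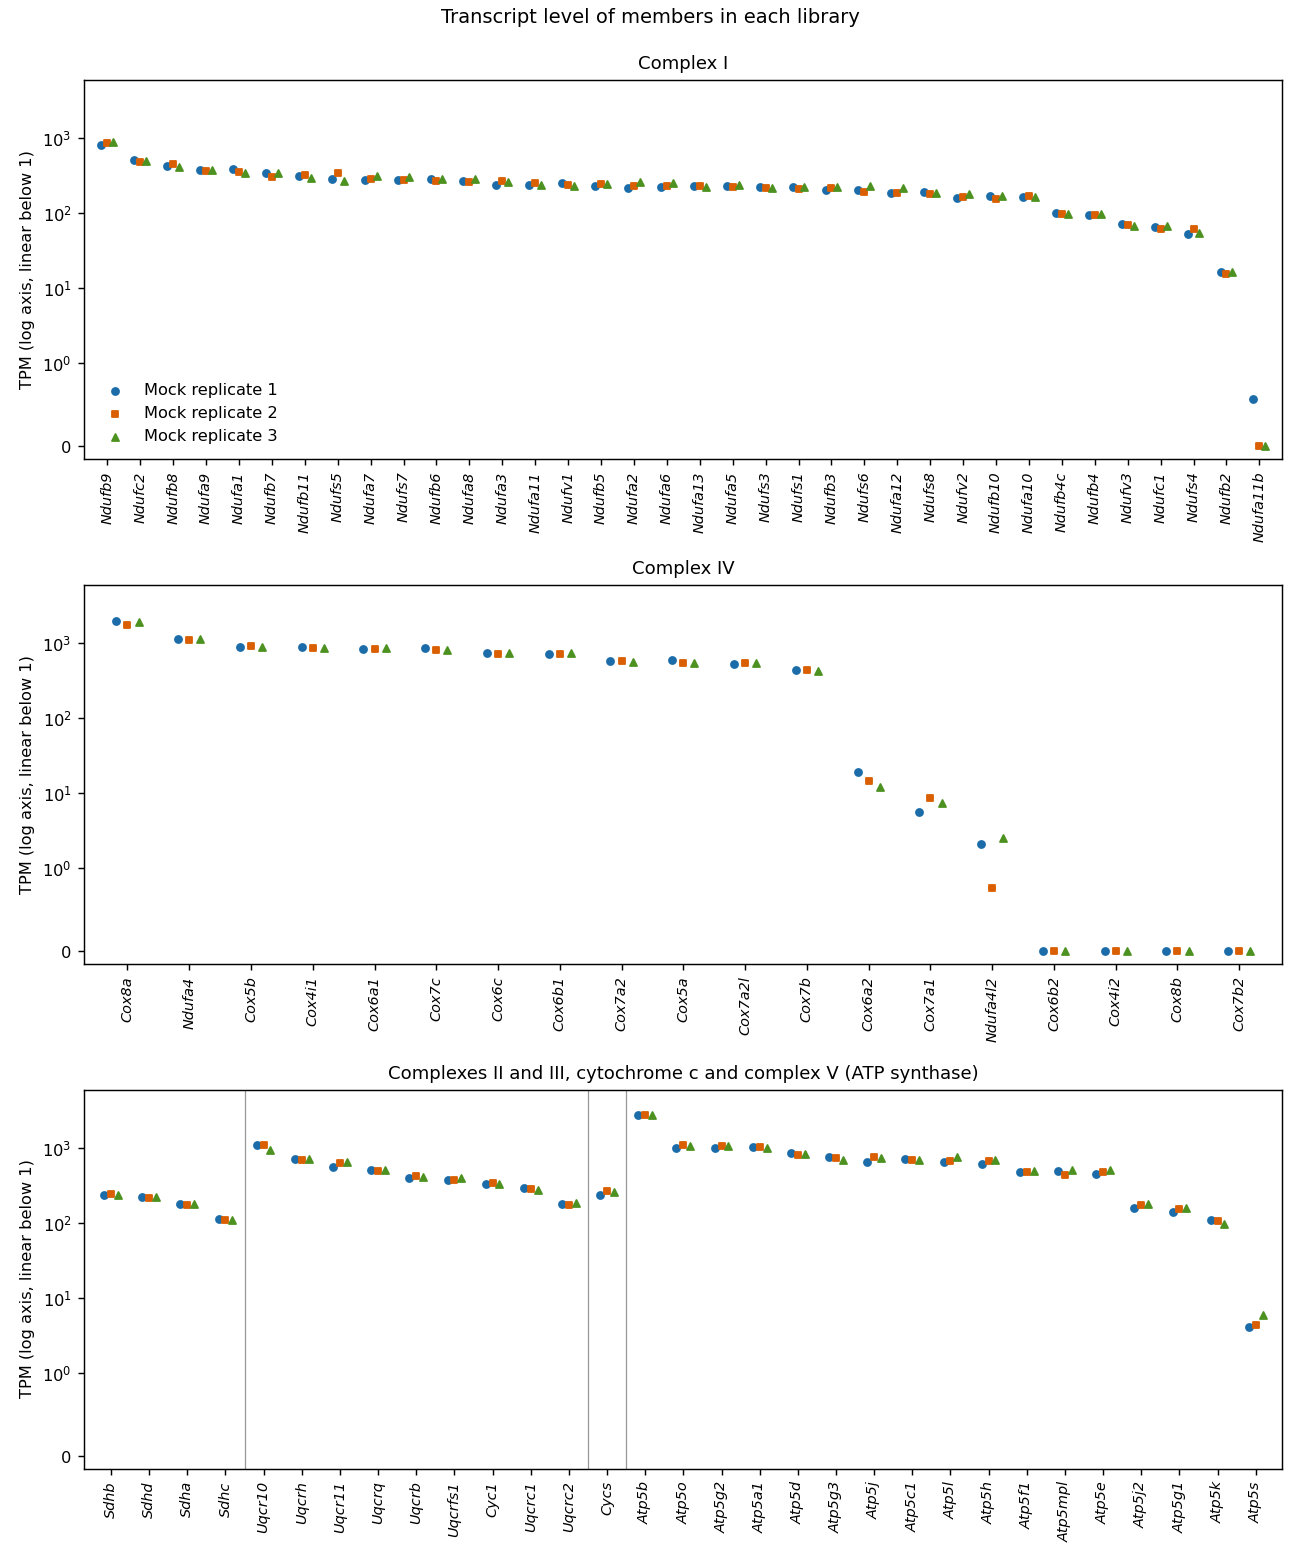
TPM (log axis, linear below 1) of the genes in the 3 Mock libraries, one point per library, ordered by mean within a complex. The 3 libraries lie close together for nearly every subunit. With the principal transcripts used here Atp5b is highest at 2733 TPM, and Cox6b2, Cox4i2, Cox8b and Cox7b2 stand at 0.

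In complex I, which oxidises NADH, transcript levels lay between 16.0 and 849 TPM over 35 subunits, with a median of 231 ± 2.92 TPM (mean ± SD of the 3 library medians). Ndufb9, an accessory subunit of the membrane arm, was highest, with 818, 854 and 875 TPM in replicates 1, 2 and 3. Ndufc2, another membrane-arm subunit, had 513, 485 and 495 TPM, and Ndufb8, whose protein is unstable when complex I does not assemble, had 419, 447 and 411 TPM. These libraries did not overlap between Ndufb9 and Ndufc2, nor between Ndufc2 and Ndufb8. With merged exons as the length Ndufb9 and Ndufc2 had 914 and 711 TPM. Ndufb8 then had 145 TPM, below the complex I median of 208.7 TPM, so its place among the highest was not kept. At the low end stood Ndufs4, an accessory subunit whose loss causes a Leigh-like disease, with 53.1, 61.3 and 54.5 TPM. Ndufb2, also of the membrane arm, was lowest at 16.4, 15.3 and 16.2 TPM. That value rests on a principal transcript of 4371 bases. With the shortest of its equally ranked transcripts (455 bases) Ndufb2 reached 146 TPM, and its place as the lowest subunit was then not kept.

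The functional parts of complex I had similar medians. The N module, which binds NADH and holds the flavin, had a median of 212 ± 12.4 TPM over 10 genes, and the Q module, where ubiquinone is reduced, 257 ± 9.42 TPM over 6. The proximal and distal membrane arm had 249.7 ± 12.8 TPM over 9 and 258 ± 4.30 TPM over 10. Within each part the genes differed more than the parts did: the Q module ran from 185 to 373 TPM and the distal arm from 16.0 to 849 TPM.

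Complex II, succinate dehydrogenase, also serves the citric acid cycle. Its 4 genes spanned a 2.17-fold range, the narrowest of the complexes. A range widens with the number of genes, and the other complexes held 9 to 35 subunits. It therefore does not show that complex II was the most even. Sdhb, the iron-sulfur subunit, had 238, 241 and 237 TPM in replicates 1 to 3, and Sdhd, a membrane anchor, 218, 215 and 224 TPM. Sdha, the flavoprotein that oxidises succinate, followed at 176, 174 and 176 TPM. The second anchor, Sdhc, had 113, 109.6 and 108 TPM. With principal transcripts the 4 genes kept this order in each library without overlap. With merged exons as the length the order changed. Sdhd was then highest at 345 TPM, Sdha and Sdhb had 194.5 and 192 TPM, and Sdhc 169.6 TPM.

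In complex III, the cytochrome bc1 complex, the small accessory subunits led. Uqcr10 had 1091, 1083 and 944 TPM, Uqcrh, the hinge protein beside cytochrome c1, 713, 697 and 701 TPM, and Uqcr11 559, 635 and 639.5 TPM. The core proteins were lowest, Uqcrc1 at 293, 281 and 277 TPM and Uqcrc2 at 177, 173 and 181 TPM. Both catalytic subunits encoded in the nucleus lay between, Uqcrfs1, the Rieske iron-sulfur protein, at 383 ± 14.0 TPM and Cyc1, cytochrome c1, at 333 ± 5.50 TPM. With merged exons as the length Uqcrfs1, at 604 TPM, was above Uqcrh at 491 TPM. Uqcrc2 was then above Uqcrc1, at 207 against 179 TPM, and both stayed lowest. Uqcrq, a subunit close to cytochrome b, stood at 498 ± 4.06 TPM with its 1521-base transcript and at 1781 TPM with the shortest equally ranked one (405 bases), which would put it first. Cycs, the somatic cytochrome c that carries electrons to complex IV, had 234, 265 and 257 TPM, lowest in replicate 1.

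Complex IV, cytochrome c oxidase, had the highest median TPM, 810.1 ± 10.6 TPM over its 11 widely expressed subunits. Cox8a, a small membrane subunit, led with 1957, 1724 and 1932 TPM. Ndufa4, first assigned to complex I and now counted with complex IV, had 1125, 1107 and 1132 TPM, and Cox5b, a matrix-side subunit that binds zinc, had 885, 920.3 and 891 TPM. The lowest were Cox5a at 597, 534 and 547 TPM and Cox7b at 437, 435 and 418 TPM. With principal transcripts all 11 stood within a 4.35-fold range, the lowest of them above the complex I median. With merged exons as the length the range was 16.2-fold, and Cox6c, at 161 TPM, was below the complex I median of 208.7 TPM.

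The tissue-type isoforms of complex IV were low or without a read in these cells. Cox4i2, the lung and low-oxygen form of subunit 4, had no read, while Cox4i1 had 877, 869.7 and 859 TPM (2775, 2799 and 2776 reads). Cox4i1 was thus at least 2670-fold higher per kilobase. Cox6b2, a testis form, had no read, against 708, 716 and 734 TPM for Cox6b1, which put it at least 1760-fold lower. Cox7b2, also described from testis, and Cox8b, made in muscle and brown fat, likewise had none, and were at least 976-fold lower than Cox7b and at least 2820-fold lower than Cox8a. These bounds set 3 counts over the group against the partner's reads. Cox8c was not analysed here.

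Cox6a2, the heart and muscle form of subunit 6a, was the one tissue-type isoform above 1 CPM. It had 54, 41 and 34 reads, or 19.2, 14.3 and 11.8 TPM, against 819.8, 820.5 and 844 TPM for Cox6a1. The log2 ratio per kilobase was -5.79 ± 0.107 (SE), or 55.2-fold lower (limma on log2 of count + 0.5, adjusted p = 1.67e-15). This SE, like the others from limma, is moderated by the spread of all genes. The ratios in replicates 1, 2 and 3 were -5.40, -5.82 and -6.14 (SD 0.367). In that comparison 98.7% of all genes were also lower than Cox6a1, so the call itself is the background. In a bulk sample, fewer cells with a transcript and less of it per cell cannot be told apart. The exons of Cox6a2 share 70 bases with Itgad on the opposite strand, and the sources used here do not give whether counting used strand. Muscle markers beside it stood at 0 to 4 reads.

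Cox7a1, the muscle form of subunit 7a, had 9, 14 and 12 reads, or 5.53, 8.47 and 7.23 TPM, against 581, 566 and 554 TPM for Cox7a2. It was 77.9-fold lower per kilobase (log2 ratio -6.28 ± 0.123, limma adjusted p = 8.51e-11), in a fit where 98.1% of all genes were lower than Cox7a2. Ndufa4l2, a paralog of Ndufa4 known to be induced in low oxygen, had 8, 3 and 10 reads against 2839, 2842 and 2917 for Ndufa4. Its log2 ratio per kilobase was -9.34 ± 0.282 (limma adjusted p = 7.55e-11, with 99.1% of all genes lower than Ndufa4). The SD of the 3 library log2 ratios was 0.320 for Cox7a1 and 0.827 for Ndufa4l2. The 3 libraries of each low isoform lay far from those of its partner.

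Cox7a2l resembles subunit 7a and is described as a factor that links complexes III and IV in supercomplexes, a role not tested here. It stood beside Cox7a2 and far above Cox7a1. It had 530.3, 543 and 535 TPM, each below the 554 to 581 TPM of Cox7a2. The log2 ratio per kilobase was -0.08 ± 0.0307 (limma adjusted p = 0.0306), and the call was lost without any one of the 3 replicates (adjusted p from 0.0551 to 0.103) and with merged exons as the length (adjusted p = 0.53). By reads alone Cox7a2l was higher, with a log2 ratio of 0.63. Cyct, the testis form of cytochrome c, lies outside the symbol rule. It had 1 read against 9898 for Cycs, a share of 0.0101% (95% exact Clopper-Pearson interval 0.000256% to 0.0563%).

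**Figure D2:**
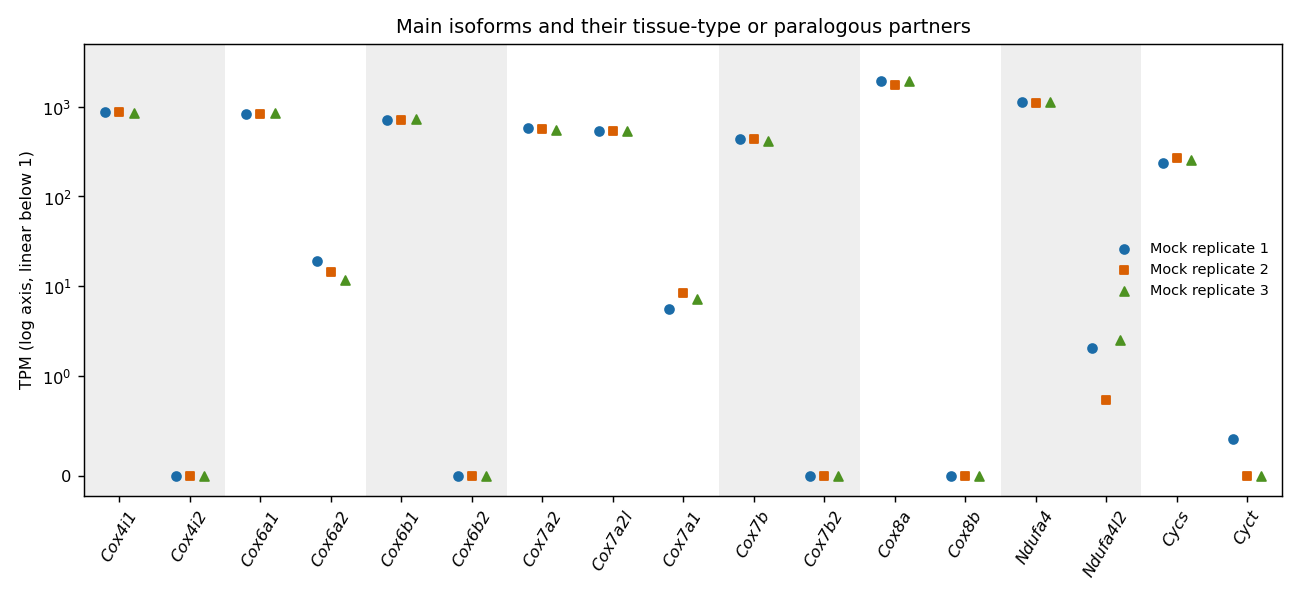
TPM (log axis, linear below 1) in the 3 Mock libraries for each widely expressed form and, beside it, its tissue-type form or paralog. Cox7a2l at 536 TPM is beside Cox7a2, Cox6a2 and Cox7a1 stand at 15.1 and 7.08 TPM, and Cox4i2, Cox6b2, Cox7b2 and Cox8b are at 0.

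Promoters of a widely expressed and a tissue-type form of the same subunit are shown for Cox7a1 and Cox8b, the muscle-type genes with a promoter entry, and their partners. They are the 250 bases before the RefSeq start (build GRCm38.p6), on the gene's strand, with CpG dinucleotides in capitals. Cox7a2 lies at chr9:79759854-79760103 (minus strand), Cox7a1 at chr7:30183921-30184170 (plus strand), Cox8a at chr19:7217617-7217866 (minus strand) and Cox8b at chr7:140900447-140900696 (minus strand).
Cox7a2: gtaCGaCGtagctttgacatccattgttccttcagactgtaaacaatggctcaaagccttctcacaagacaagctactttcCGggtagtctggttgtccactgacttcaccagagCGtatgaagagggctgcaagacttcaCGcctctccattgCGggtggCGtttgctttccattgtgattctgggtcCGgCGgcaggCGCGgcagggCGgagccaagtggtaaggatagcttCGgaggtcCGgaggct
Cox7a1: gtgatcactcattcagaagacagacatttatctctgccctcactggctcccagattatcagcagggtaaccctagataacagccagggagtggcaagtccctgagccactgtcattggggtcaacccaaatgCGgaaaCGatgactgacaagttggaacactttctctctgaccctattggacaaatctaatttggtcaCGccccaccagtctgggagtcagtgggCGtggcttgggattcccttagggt
Cox8a: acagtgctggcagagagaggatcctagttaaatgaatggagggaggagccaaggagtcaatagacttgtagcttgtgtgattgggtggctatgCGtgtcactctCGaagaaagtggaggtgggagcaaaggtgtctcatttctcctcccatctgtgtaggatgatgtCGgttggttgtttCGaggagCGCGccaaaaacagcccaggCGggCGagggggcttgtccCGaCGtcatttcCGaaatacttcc
Cox8b: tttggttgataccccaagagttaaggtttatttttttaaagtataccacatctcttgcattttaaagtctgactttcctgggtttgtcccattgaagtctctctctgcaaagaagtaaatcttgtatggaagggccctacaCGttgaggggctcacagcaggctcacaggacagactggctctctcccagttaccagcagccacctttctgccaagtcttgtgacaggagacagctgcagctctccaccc
The widely expressed genes held 14 CpG (Cox7a2) and 11 (Cox8a), and their muscle-type forms 4 (Cox7a1) and 1 (Cox8b).

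Over the whole RefSeq promoter window of 300 bases (250 before the start and 50 after), 67 of the 88 genes had an entry. Cox4i1, Cox4i2, Cox6a2 and Ndufa4l2 did not. Subunit promoters had a median of 19 CpG (range 5 to 43, 62 genes), beside 18 over 13141 genes of the table. The 4 tissue-type promoters had 2 (Cox8b), 7 (Cox7a1), 10 (Cox6b2) and 10 (Cox7b2). Only 2 subunit promoters were that low, Cox7b with 5 and Ndufc2 with 8, while 31.1% of all promoters held at most 10. Cox7b and Ndufc2 were transcribed at 430.0 and 497.5 TPM, so a low CpG count went with high levels in these genes. The partners of the 4 tissue-type forms had 19 (Cox8a), 20 (Cox7a2), 17 (Cox6b1) and 5 (Cox7b). In the last pair the tissue-type form, Cox7b2, thus held more CpG than its partner.

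Letters of 4 motifs were searched on both strands of the same windows. The NRF1 motif (GCGCNTGCG), named for a factor known to regulate respiratory genes, was found in 23 of 67 member promoters (34.3%), against 11.5% of all promoters. With 1 more C at its end it was found in 16 (23.9%), against 8.45%. The promoters that held the shorter form included those of Cycs, Atp5g2, Atp5g3, Atp5o, Cox6a1, Ndufs5, Sdha, Sdhd and Uqcrc1. The ETS-type motif CCGGAAG was found in 15 (22.4% against 15.2%), the YY1 motif AAGATGGC in 8 (11.9% against 3.90%) and TATAAA in 7 (10.4% against 8.79%). None of the 4 tissue-type promoters held the first 3 motifs, and TATAAA was in those of Cox7b2 and Cox8b. A match describes letters only.

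**Figure D3:**
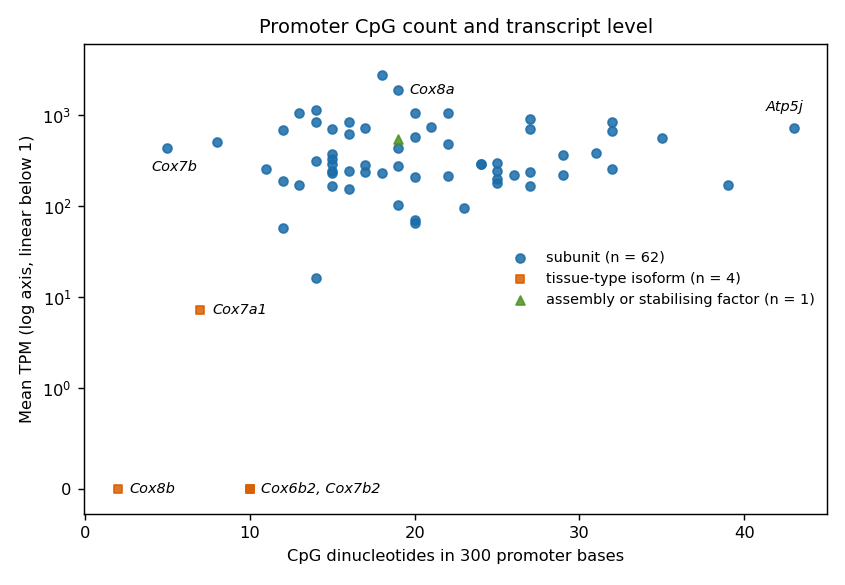
CpG count in the 300-base promoter window (horizontal) against mean TPM over 3 libraries (vertical, log axis, linear below 1) for the 67 genes with a promoter entry, by class. The 4 tissue-type genes lie at 10 CpG or fewer and below 10 TPM, while the subunits spread from 5 to 43 CpG with no visible trend in level.

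The ATP synthase had a median of 671 ± 26.0 TPM over 16 subunits. With principal transcripts Atp5b, the catalytic beta subunit of the F1 head, was the highest of all 88 genes, with 2714, 2760.2 and 2725 TPM. With merged exons as the length Cox8a was highest, at 2622 TPM against 1949 TPM for Atp5b. Atp5a1, the alpha subunit that alternates with beta in equal number, had 1018 ± 22.8 TPM, and its libraries did not overlap with those of Atp5b. Atp5o, which joins the head to the peripheral stalk, had 1005, 1075 and 1067 TPM. The lowest were Atp5g1 at 139.0, 155 and 159 TPM and Atp5k at 107, 106 and 95.7 TPM. Atp5s, or factor B, which is not a constant subunit, had 4.08, 4.31 and 5.92 TPM and was still above 1 CPM (edgeR adjusted p = 1.67e-05). By part, the F1 head had a median of 831 ± 31.7 TPM over 5 genes, the c ring 728 ± 30.3 TPM over 3, and the stalk and membrane part 574 ± 25.6 TPM over 8. With the shortest equally ranked transcripts the c ring was above the F1 head, at 1136 against 791 TPM.

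Subunit c, which forms the rotating ring, is encoded by Atp5g1, Atp5g2 and Atp5g3, whose mature proteins are the same. By reads they were close: Atp5g1 took 34.2, 36.1 and 37.2% of their reads, Atp5g2 37.6, 38.4 and 38.0%, and Atp5g3 28.3, 25.6 and 24.8%. Per kilobase of principal transcript Atp5g2 was above Atp5g3 (log2 ratio 0.50 ± 0.0571, limma adjusted p = 7.51e-07), where 1.35% of all genes were higher than Atp5g3. It stayed higher with each length tried, by 0.49 to 1.23. Atp5g1 was below Atp5g3 on that scale (log2 ratio -2.27 ± 0.0537, adjusted p = 3.75e-15, with 98.4% of all genes lower), but this direction rests on a transcript of 4715 bases. With its shortest equally ranked transcript (596 bases) the ratio turned to 0.71, with Atp5g1 at 1136 TPM. Against Atp5g2 it was -2.78 ± 0.0459 (adjusted p = 2.52e-171, with 99% of all genes lower than Atp5g2), -0.52 with the shortest transcript and -0.09 by reads (adjusted p = 0.0675). Atp5g2 shares 87.7% of its 31-base words with other genes, among them 4 pseudogenes, so its reads are uncertain to that extent. In all, 7 of the 8 pairs with a read were lower than their partner and 1 was higher per kilobase. Cyct counts among the 7 by its 1 read, in a fit where 94.9% of all genes were lower than Cycs.

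**Figure D4:**
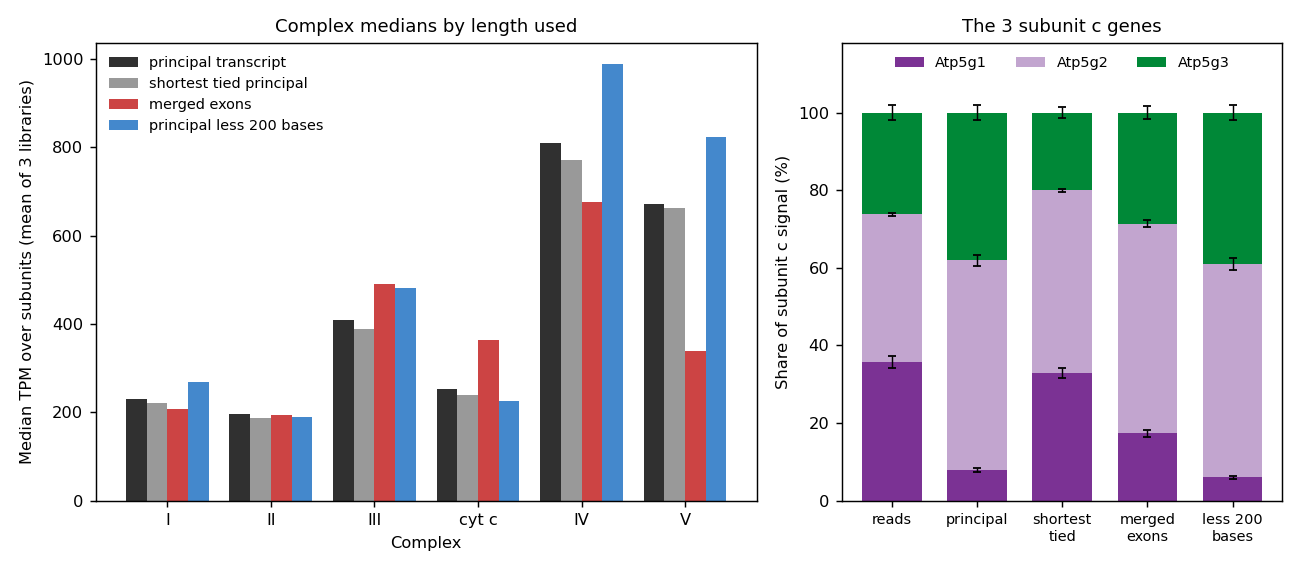
Left, median TPM over the subunits of each complex (mean of 3 libraries) with 4 choices of transcript length. Right, share (%) of the 3 subunit c genes by reads and with the same lengths (error bars, SD over 3 libraries). Complex IV is highest and complex II lowest with each length, complex V moves from 671 to 339 TPM with merged exons, and Atp5g1 moves from 7.90% to 32.9% between the principal and the shortest transcript.

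Set beside each other, the complexes stood in the order IV, V, III, I and II in each of the 3 libraries, at 810.1 ± 10.6, 671 ± 26.0, 409 ± 11.3, 231 ± 2.92 and 197 ± 2.90 TPM, with Cycs at 252 ± 16.3 TPM. Subunits are not replicates, so no test was made over them. Complex IV stayed highest and complex II lowest with all 4 lengths, but not by reads alone. Without length the medians were 288 ± 19.8 CPM in complex V, 201.5 ± 3.76 in IV, 200.03 ± 14.4 in III, 139 ± 0.322 in II and 88.9 ± 2.38 in I, so complex V was highest and complex I lowest. Complex V fell to 338.8 TPM with merged exons, below the 490.8 TPM of complex III. Shorter transcripts had higher TPM over the 76 subunits (Pearson r = -0.424, Spearman rho = -0.408, across genes), a relation that shares the length on both axes. With CPM in place of TPM the sign turned (r = 0.289).

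Among the related copies, Ndufb4c had 17.0 ± 0.296 CPM and was above 1 CPM, beside 41.0 ± 0.919 CPM for Ndufb4. Per length it was not lower, with 97.6 ± 2.33 TPM for Ndufb4c (390 bases) and 94.9 ± 1.47 TPM for Ndufb4 (971 bases). The annotation lists Ndufb4c as a processed pseudogene (chr15:73809507-73809896, minus strand, GRCm38), and 100% of its 31-base words occur in other genes. Counts of both were fractional, so the division of reads between them is uncertain. Ndufa11b, also a processed pseudogene, had 1 read in replicate 1. Ndufb4b had none.

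The factors that assemble these complexes had a median of 34.55 TPM over 51 genes, beside 317.6 TPM over the 76 subunits. Of the 51 factors, 50 were above 1 CPM (98%, against 74.3% of all genes tested) and 48 below 100 CPM (94.1%, against 81.9%; edgeR, adjusted p under 0.05). Among the subunits, 23 were below 100 CPM (30.3%). The 3 above 100 CPM, named after their values were seen, all serve complex IV: Coa5 at 211 ± 6.73 CPM, Lrpprc, which stabilises mitochondrial mRNA, at 204 ± 5.94 CPM, and Coa3 at 113 ± 5.82 CPM. The factor below 1 CPM was Pet117, with 6 reads over the libraries (adjusted p = 0.00216). With 18 partner genes such as carriers and ubiquinone enzymes, 66 of 69 listed genes were above 1 CPM and 3 below. Beside Pet117, these were Cyct with 1 read and Slc25a31, the testis ADP/ATP carrier, with 4 (adjusted p = 9.34e-04).

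The highest of the list were carriers that supply the ATP synthase. Slc25a5, an ADP/ATP carrier of dividing cells, had 1528, 1614 and 1604 TPM, Slc25a3, the phosphate carrier, 1165, 1189.96 and 1156 TPM, and Slc25a4, the ADP/ATP carrier of heart and muscle, 429.6, 416 and 442 TPM. Slc25a4 therefore stood at a level beside Cox7b, while the muscle-type subunits Cox6a2, Cox7a1 and Cox8b were at 15.1, 7.08 and 0 TPM.

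Most of the genes differed little between the libraries, and the ATP synthase held 6 of the 12 that did. The median coefficient of variation was 3.57% over members and 5.08% over all genes that averaged at least 10 counts. These values were not matched for level. Members with a length had a median of 125.3 CPM, against 23.58 CPM for table genes with a length and a count. The lower coefficient of members therefore does not show that they were steadier than genes of similar level. By a Poisson deviance test, 12 of 81 members varied beyond counting error (14.8%), against 3.31% of 11000 genes. With library totals in place of TMM-scaled ones 10 did, 4 of them of the ATP synthase, as Atp5g2 and Atp5o lost the call. Among genes that averaged at least 1000 counts, where the test sees smaller differences, the shares were 20.4% of 49 members and 9.42% of 2293 genes.

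Cox8a had 476, 423 and 476 CPM in replicates 1, 2 and 3 and was low in replicate 2 (Poisson deviance adjusted p = 6.73e-07). Cycs had 323, 369 and 360.2 CPM and was low in replicate 1 (adjusted p = 1.06e-05). Ndufs5, of the complex I membrane arm, had 86.1, 103 and 81.3 CPM and was high in replicate 2 (adjusted p = 1.18e-04). Ndufa12, an accessory subunit of the N module, was high in replicate 3 instead, with 90.6, 92.2 and 109 CPM (adjusted p = 0.00491). In complex III, Uqcr10 had 209, 209.7 and 183 CPM (adjusted p = 0.00167) and Uqcr11 109.9, 126 and 127 CPM (adjusted p = 0.0233), so these small subunits were low in different libraries.

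The 6 varying genes of the ATP synthase were all lowest in replicate 1. Of all 17 of its genes 11 were lowest there, as were 26 of the other 64 members tested (40.6%) and 35.4% of the table genes tested. Atp5j, coupling factor 6 of the peripheral stalk, had 230.1, 270.2 and 264 CPM (adjusted p = 4.24e-06), and Atp5g1 had 289.7, 326 and 335 CPM (adjusted p = 4.96e-06). Atp5l, subunit g, had 154, 163 and 182 CPM (adjusted p = 8.52e-04). The remaining 3 differed less. Atp5h, subunit d, had 169, 188 and 193 CPM (adjusted p = 0.0163), Atp5o 372, 402 and 400.4 CPM (adjusted p = 0.0406), and Atp5g2 318, 346 and 343 CPM (adjusted p = 0.0426). Of the 12 varying genes 9 were lowest in replicate 1, as were 153 of 364 varying genes of the table (42%). Without replicate 1 only 4 members varied (Cox8a, Ndufa12, Ndufs5 and Uqcr10), none of them of the ATP synthase. Without replicate 3 there were 5 (Atp5g1, Atp5j, Cox8a, Cycs and Ndufs5), and without replicate 2 there were 9, of which 8 were among the 12, the other being Ndufa2 of the N module. Atp5j shares 397 exon bases with Gabpa on the opposite strand, and Atp5o 702 with D430001F17Rik and Gm15976. Of their 31-base words, Atp5g2 shares 87.7% with other genes, Atp5l 69.6%, Atp5h 60.8%, Atp5o 46.4%, Ndufs5 36.0%, Cycs 31.8% and Ndufa12 29.3%. The genes that share words with Cycs include 34 pseudogenes. The rest of the 12 share 19.5% (Uqcr11) or less, and Cox8a none. The part of such shared sequence in the variation was not tested. All 12 varying genes had a promoter entry. In a count made after their values were seen, 9 of them held the shorter NRF1 motif, against 14 of the other 55 members with an entry, and 4 against 12 held the longer one.

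**Figure D5:**
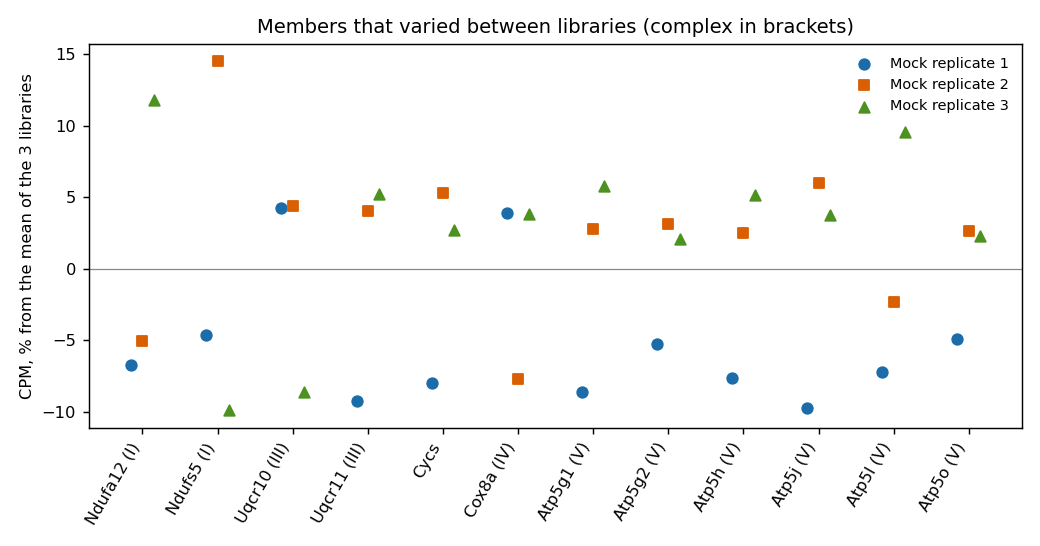
Deviation of CPM (%) in each Mock library from the gene's mean, for the 12 members that varied beyond counting error, with the complex in brackets. Replicate 1 is lowest for 9 of the 12, among them all 6 of complex V, and Cox8a is low in replicate 2.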

How the data were processed

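RNA of 3 Mock samples was sequenced. The authors' deposited table gives estimated counts per gene symbol, not normalized and not pooled. The aligner, counter, annotation and strand setting were not given in the sources used here. Per the submitters' processing notes the genome build was GRCm38.p6. Of 17285 rows, 2270 hold values over 0.005 from a whole number, 6 of them members (Ndufb4, Ndufb4c, Ndufa13, Uqcrc2, Atp5j and Atp5f1). Counts were rounded, which left 14408 genes to test and 2877 without a read.

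The members, lists and tests were chosen with earlier results of these data known. Levels were tested against 1 and 100 CPM with edgeR 4.0.16 (TMM, intercept-only quasi-likelihood F statistic, two-sided), with DESeq2 1.42.0 as an alternative. In the edgeR test, genes with less than Poisson variance kept the larger of that p and a Poisson likelihood-ratio p. Ratios within libraries were tested with limma 3.58.1 (mean-variance trend, prior count 0.5). Variation between libraries was tested by the Poisson deviance (2 degrees of freedom), for genes that averaged at least 10 counts. Every p was Benjamini-Hochberg adjusted over all genes tested, with a threshold of 0.05. TPM used the principal (APPRIS) GENCODE M21 transcript, longest if tied, for 16862 rows with 98.2% of counts. Promoters and their starts are RefSeq's.

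Named with values were all isoform pairs, in each complex the 3 highest and 2 lowest subunits by mean TPM, members not above 1 CPM or varying, and of the pathway list the 3 highest and those not above 1 CPM. One complex I gene enters the counts and medians but is not reported here by itself. Intervals and floors cover counting error only. On simulated counts for 14408 genes, the test against 1 CPM called 49 of 50 genes set to 2 CPM and 33 of 50 set to 0.5 CPM. At 1.25 CPM it called 10 of 50 and at 0.8 CPM 4 of 50. Of 200 genes set to 1 CPM itself it called 12. The test against 100 CPM called 14 of 200 set to that level, and all 50 genes set to each of 0.5, 0.8, 1.25 and 2 times it. For variation, simulated on 11006 genes, 23 of 50 genes changed 1.25-fold in a library were called.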

Additional observations from a re-analysis of the deposited data

How the results depend on the processing

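The 80 members called above 1 CPM were the same genes under each alternative test of that level, and all 80 were also above 0.5 CPM (with Cox7a1) and above 2 CPM. Members below 1 CPM were 1 in the main test, 0 with DESeq2's Wald test (Ndufa11b, adjusted p = 0.0692, and 0 also at an unadjusted p under 0.05), 0 with genes of at least 10 counts, where Ndufa11b is not tested, 3 against 2 CPM, and 0 to 1 leaving out each replicate in turn. Against 200 CPM, 26 members were above and 54 below, and against 50 CPM 11 were below. Pathway genes below 1 CPM fell to 0 with at least 10 counts. Against 2 CPM, Cox7a1 was below (log2 distance -0.69).

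By reads without length, 4 pairs were lower and 3 higher, and with the shortest equally ranked transcript, an alternative chosen after seeing the data, 2 were higher. Directions turned for Cox7a2l to Cox7a2 (0.63 by reads) and Atp5g1 to Atp5g3 (0.45 by reads, 0.71 with the shortest transcript). Varying members ranged from 4 to 9 leaving out one replicate, and library totals without factors gave 10.

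Median TPM of complexes I, II, III, IV and V and of cytochrome c became 208.7, 193.4, 490.8, 676.1, 338.8 and 364.7 with merged exons. With 200 bases taken off the length (also added later) they were 269.5, 188.9, 481.8, 987.5, 824.2 and 226.1. Without length, also added later, they were 88.9, 138.9, 200.03, 201.5, 287.5 and 350.6 CPM. The shortest transcripts gave 220.8, 187.6, 388.8 and 770.8 for I, II, III and IV. Subunits with whole counts gave 235.2 for I and 453.5 for III, and all members of complex IV 556.9. Of the values for single genes and pairs under the alternatives, 129 kept direction and side of the threshold, 12 lost it, 4 gained it and 4 turned direction. The cause was not tested where the length used does not itself set the change.

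No paired analysis was possible because the series has 1 group. Depth limits the low isoforms, where 1 read is worth 0.106 to 0.107 CPM, and levels compared between genes depend on the transcript assumed.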

Other observations

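Subunits and regulators of the same complexes whose symbols fall outside the rule were chosen for naming here after their values were seen. Ndufab1 was already among the 18 partner genes counted above. Usmg5, a small membrane subunit of the ATP synthase, had 1174, 1150 and 1315 reads in replicates 1, 2 and 3 (129 ± 9.30 CPM) and was above 100 CPM by edgeR's test. Atpif1, the inhibitor that binds the F1 head, had 482, 442 and 503 reads (50.6 ± 3.35 CPM), and Ndufab1, the acyl carrier protein of complex I, 659, 672 and 699 reads (71.9 ± 1.96 CPM). Both were above 1 and below 100 CPM.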
